A study of Mus musculus with 9 samples.

Results

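The leader, or 5′ untranslated region, of the mouse Eif5 mRNA was read by chemical probing in embryonic stem cells and after refolding of the RNA in a tube. Its members were all rows of the deposited table whose transcript was the RefSeq mRNA of Eif5, 603 of 32967 nucleotide readings. They came from 3 of the 161 amplicons, called here by the transcript positions of their bounds, 116 to 366, 341 to 591 and 343 to 593. Of the 603 readings, 329 were adenine or cytosine, the bases on which the probe reports pairing. The gene was chosen by its signal in refolded RNA against both groups of cells, so those differences are given below as descriptions. No p-value is printed for them, and counts of bases that passed stand only beside the share for all bases. The contrast between ATP-depleted and untreated cells had no part in the choice and was tested.

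All samples were total RNA of E14TG2a cells, a feeder-independent line of mouse embryonic stem cells, in 3 groups of 3 samples. Per the labels, the 3 samples of a condition were independent. Untreated cells were exposed to 1.6% dimethyl sulfate (DMS) at 37 °C in a buffer of 250 mM bicine, for 6 min. ATP-depleted cells were first held for 10 min in medium without glucose that contained 10 mM 2-deoxyglucose, a blocker of glycolysis, and 10 mM sodium azide, a blocker of respiration, and both agents stayed in the later media. The third group was labelled as refolded in vitro, with DMS conditions not given in the sources used here. A control that had not met DMS was not analysed here, and the signal of each base without the reagent is therefore unknown.

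eIF5 is the GTPase-activating protein of eIF2 in the scanning small ribosomal subunit, and it takes part in the decision that an AUG is the start codon. More eIF5 lets ribosomes start at AUG codons in poor surroundings. The leader of its own mRNA holds upstream AUG codons in poor surroundings, and these are known from work on eIF5 for a feedback by which the protein limits its own synthesis. A purine at the position 3 bases before the AUG is the strongest favourable feature of a start site. DMS methylates the pairing face of unpaired adenine and cytosine, so a low signal at these bases is commonly read as pairing or as cover by a protein.

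The read sequence held 4 ATG triplets, which are among the codons a scanning ribosome meets. They are shown in the DNA letters of the deposited table with the triplet in capitals. Positions before 142 and from 345 to 364 were not read, so any ATG there would be missed. The last of the 4 was taken as the main start codon, because the table carries no annotation of the coding sequence.
ATG at 312: cgttgggtttATGtctttatttg
ATG at 420: aaattttttcATGtcagagaccg
ATG at 452: gcagtcgtttATGtcatcccttc
ATG at 542, main: ataagccaaaATGtctgtcaacg
The 3 upstream triplets lay 230, 122 and 90 bases before the main one. Each of them had T at position -3, counted from the A of the triplet as +1, whereas the main one had A there. All 4 had T at +4. Over the whole table T stood at -3 in 79 of 266 ATG triplets (29.7%), and A or G in 149 of 266 (56.0%). All 4 Eif5 triplets were followed by TC, as were 18 of 264 in the table (6.82%), Eif5 included.

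The reading frames that began at these triplets differed. The frame of the ATG at 452 was that of the main start codon and ended after 22 codons at a TGA at position 518, before the main ATG. The frame of the ATG at 420 was another one and ran past the main ATG without a stop for all 49 codons that were read. The frame of the ATG at 312 was open for the 11 codons that were read, up to position 344, where the first stretch ended. Positions 345 to 364 lay between the stretches and were not read, so no statement on that frame beyond them was possible.

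The first stretch, amplicon 116 to 366, covered positions 142 to 344 and differed in composition from the rest of the read sequence. It held 19 adenines and 81 cytosines in 203 nucleotides, and its GC content was 71.4%, against a median of 57.9% over the 161 amplicons. The other amplicons covered positions 365 to 564 and 367 to 566, reached into the start of the coding sequence, and had a GC content of 40.5%. They shared 114 adenines and cytosines and were made from the same samples, so they are readings of the same molecules from nearly the same place and not replicates. How reads were divided between them is not stated in the labels.

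Reactivity is given in CPM, the count of a nucleotide per 1000000 counts of its amplicon in 1 sample. Values therefore show how the signal was spread along an amplicon, and a rise or fall of the whole amplicon cannot be seen. Counts per Eif5 library ranged from 85348 to 341792 in amplicon 116 to 366, from 68881 to 178867 in 341 to 591, and from 68424 to 198371 in 343 to 593. The whole samples held 5743965 to 12616275 counts. The deposited CPM also contain a scaling factor per library, and in amplicon 116 to 366 it was 0.800 to 0.832 in vitro and 1.08 to 1.12 in the cells. The same share of the counts is thus written as a higher CPM in vitro, and for the bases of this amplicon described below the fold is also given as a plain share of the counts.

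Adenine was the most reactive base and guanine the least. In untreated cells the median reactivity in amplicon 116 to 366 was 8833 ± 520 CPM (SD, n = 3) for adenine, 4964 ± 237 for cytosine and 675.0 ± 31.5 for guanine. The medians in amplicon 341 to 591 were 7390 ± 258, 5161 ± 218 and 898.0 ± 106. In amplicon 341 to 591 cytosines held 25.7% ± 0.452 of all signal in untreated cells and 21.7% ± 0.234 in vitro, and adenines 50.7% ± 2.18 and 56.5% ± 0.444. In amplicon 116 to 366 cytosines instead held more in vitro, 62.8% ± 0.233 against 56.1% ± 1.68.

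The profile of the GC-rich stretch was far more uneven after refolding. Unevenness was measured by the Gini coefficient over adenine and cytosine, where 0 is a flat profile and higher values mean that fewer bases hold the signal. It was 0.338, 0.308 and 0.329 in the 3 untreated samples of amplicon 116 to 366. It was 0.365, 0.347 and 0.360 after ATP depletion, and 0.577, 0.578 and 0.572 in vitro. All 3 in vitro samples lay far above all 6 samples of cells. Among the 161 amplicons the coefficient of this stretch ranked 93rd from the highest in untreated cells and 11th in vitro. Its difference of 0.25 between refolded RNA and untreated cells was the largest of the 161, where the median difference was 0.0923, and 75.2% of all amplicons had in vitro samples that all lay higher. This difference chose the gene, so nothing is read from its rank.

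The 2 amplicons around the main start codon were among the most even of the table in cells. Amplicon 341 to 591 had a Gini coefficient of 0.221 ± 0.0191 (n = 3) in untreated cells, 0.247 ± 0.0120 after ATP depletion and 0.352 ± 0.0114 in vitro. Amplicon 343 to 593 had 0.218 ± 0.0368, 0.238 ± 0.0217 and 0.336 ± 0.0176. In untreated cells they ranked 158th and 159th of 161. Untreated replicate 1 stood higher than the other untreated samples in amplicon 343 to 593, at 0.260 against 0.192 and 0.202.

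**Figure D1:**
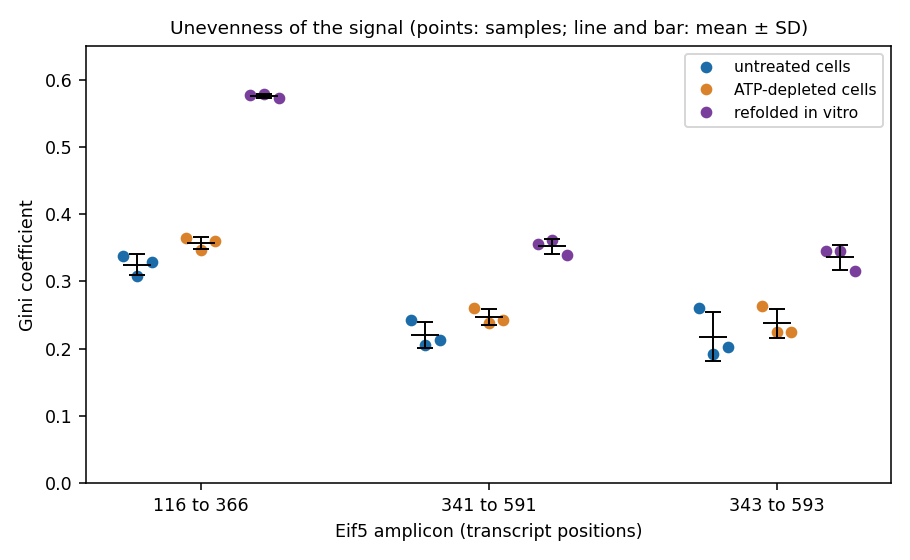
Gini coefficient of the adenine and cytosine reactivity (vertical axis, no unit) in the 3 Eif5 amplicons (horizontal axis, transcript positions of the bounds) for untreated cells, ATP-depleted cells and RNA refolded in vitro. Points are samples, and the line and bar are the mean and SD of 3; the in vitro points of amplicon 116 to 366 sit at 0.572 to 0.578 while all its points from cells are at or below 0.365.

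The change in unevenness came from both ends of the scale. The 10 most reactive of the 100 adenines and cytosines of amplicon 116 to 366 held 25.2% ± 0.763 of their signal in untreated cells, 26.7% ± 0.369 after ATP depletion and 40.2% ± 0.508 in vitro. At the other end, the share of nucleotides below 0.25 times the mean was 0.333% ± 0.577 in untreated cells, 2.67% ± 1.15 after ATP depletion and 34.0% ± 1.00 in vitro. That share in amplicon 341 to 591 was 2.05% ± 0.506, 2.63% ± 0.877 and 6.73% ± 0.506. So the GC-rich stretch had few adenines or cytosines below 0.25 times the mean in cells and many after refolding.

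**Figure D2:**
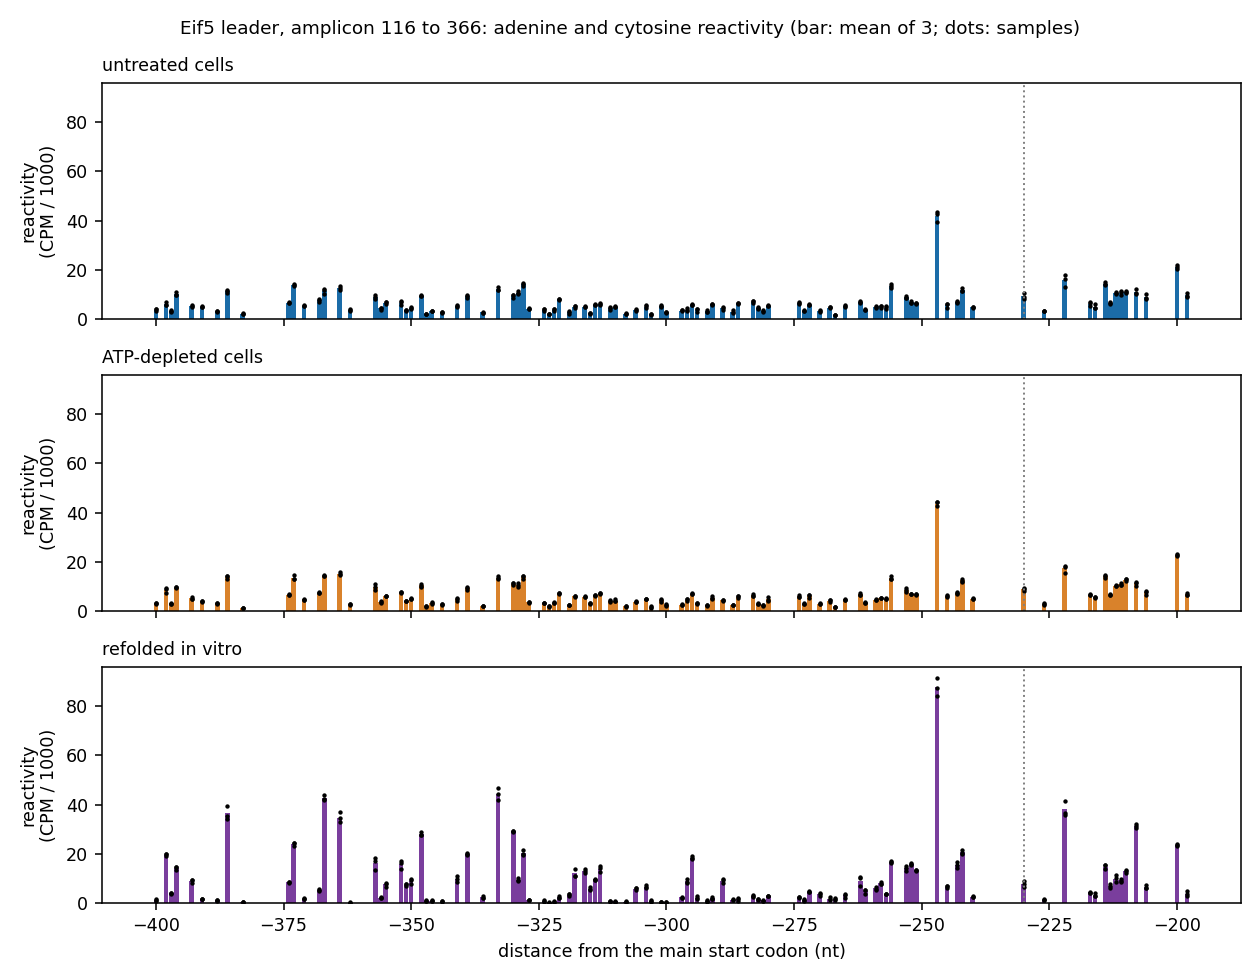
Reactivity of each adenine and cytosine of amplicon 116 to 366 in CPM divided by 1000 (vertical axis) against the distance from the main start codon in nucleotides (horizontal axis), in untreated cells, ATP-depleted cells and RNA refolded in vitro. Bars are means of 3 samples, dots are the samples and the dotted line marks the ATG at 312; the in-cell profiles look alike, and in vitro a few tall bars stand over many that are near 0.

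The nucleotides below carry that picture in the GC-rich stretch and are shown with 7 bases on either side, with the measured base in capitals. The first 3 had the largest rise in vitro on the log2 scale and the last 3 the largest fall.
C175: acgcggaCgtcgctg
C209: tcggcggCggcacct
C156: ctcggcgCtgctggt
C241: ctcgccgCcggcccc
C232: gcccctcCgctcgcc
C256: gccgctcCggacccg
All 6 were cytosines, in a stretch where 81 of 100 probed bases were.

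Among the rises, C175 read 12100, 10460 and 11820 CPM in untreated cells, 14300, 14330 and 14590 after ATP depletion and 42310, 43810 and 41740 in vitro. All in vitro samples were higher than any sample of cells, and the mean rose 3.72-fold over untreated cells as CPM and 2.73-fold as a share of the counts. C209 read 11870, 11760 and 12960 CPM in untreated cells and 46660, 42000 and 44470 in vitro, 3.64-fold as CPM and 2.67-fold as a share. C156 read 11320, 10750 and 12060 CPM and then 39590, 34230 and 35500, 2.35-fold as a share. The groups were far apart at each of the 3 sites.

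On the scale of the fit, log2(CPM + 3197), the differences were 1.65 (SE 0.087) for C175, 1.63 (SE 0.091) for C209 and 1.44 (SE 0.095) for C156. The added constant makes this scale understate the change of weak bases.

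Among the falls, C241 read 4901, 5670 and 5512 CPM in untreated cells, 3882, 5080 and 4409 after ATP depletion and 459.6, 612.4 and 551.1 in vitro. The mean in vitro was 0.101 times that of untreated cells as CPM and 0.0737 times as a share, with no overlap of the groups. C232 read 5094, 5245 and 4810 CPM and then 661.6, 950.3 and 619.2 in vitro. C256 read 6222, 6544 and 6700 CPM and then 792.9, 2161 and 1776, where in vitro replicate 1 was well below the other 2. As shares these were 0.108 and 0.179 times the untreated level. These 3 bases were near the level of the median cytosine in cells and well below it in vitro.

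The most reactive base of the stretch was the same in all 3 groups. C295 read 42520, 39560 and 43410 CPM in untreated cells, 42610, 44360 and 44180 after ATP depletion and 91250, 87480 and 83930 in vitro. It alone took 4.66% ± 0.242 of all counts of the amplicon in untreated cells, 4.81% ± 0.078 after ATP depletion and 7.15% ± 0.235 in vitro, so its rise was 2.09-fold as CPM and 1.54-fold as a share. C295 lies 17 bases before the ATG at 312.

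The next in cells were C342 and A320, which behaved differently from each other. C342, near the end of the stretch, read 20350, 21330 and 22100 CPM in untreated cells and 23660, 24110 and 23050 in vitro, a log2 difference of 0.13 (SE 0.082) that became -0.26 when the counts were divided by their plain sum. A320, inside the frame that begins at the ATG at 312, read 16380, 13260 and 17800 CPM in untreated cells, 18560, 15480 and 18140 after ATP depletion and 41640, 36740 and 35850 in vitro. Its 3 in vitro samples were all above its 6 samples of cells, and the rise was 2.41-fold as CPM and 1.77-fold as a share.

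The signal of the GC-rich stretch was distributed differently over windows of 25 bases in vitro. The window from 192 to 216 held 13.3% ± 0.0824 of the adenine and cytosine signal in untreated cells, 13.7% ± 0.269 after ATP depletion and 17.9% ± 0.212 in vitro. The window from 242 to 266 went the other way, with 9.37% ± 0.412, 8.50% ± 0.495 and 5.67% ± 0.138. From 217 to 291 all 3 windows were lower in vitro than in untreated cells in every sample, and from 142 to 216 all 3 were higher. Towards the end of the stretch the window from 292 to 316 was higher, at 14.4% ± 0.161 against 12.4% ± 0.256, and the last, from 317 to 341, was lower, at 14.3%, 13.8% and 13.8% in the in vitro samples against 14.8% ± 0.165 in untreated cells. Shares of this kind do not depend on the scaling factors. Over all amplicons 19.4% of windows lay higher and 19.6% lower in vitro without overlap.

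Over all Eif5 amplicons together, 134 of 329 adenine and cytosine readings passed an adjusted p of 0.05 in limma between refolded RNA and untreated cells. Of these, 70 were higher and 64 lower in vitro, and a base in both downstream amplicons counts once in each. Over all tested bases the share was 16.3%, with 8.08% higher and 8.18% lower. By amplicon they numbered 71 of 100, 33 of 114 and 30 of 115, in the order of their bounds. The median log2 difference was 0.03 over the Eif5 readings and 0.01 over the 16178 tested, and the 5th and 95th percentiles were -0.77 and 0.87 in Eif5 and -0.75 and 0.70 in all. This contrast chose the gene and nothing is read from the counts. Against ATP-depleted cells, which share the in vitro samples with the first comparison, 120 readings passed, 62 higher and 58 lower, where all tested bases gave 14.9%, with 8.31% higher and 6.56% lower. That count was 62 without ATP-depleted replicate 2 and 77 without ATP-depleted replicate 3.

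The split into higher and lower depended on the scaling and on the filter. With the counts divided by their plain sum, 48 readings were higher and 85 lower in vitro than in untreated cells, and with each amplicon divided by its mean, 43 and 96. Against ATP-depleted cells the splits were 42 and 74, and 35 and 84. With bases at or above the pooled median alone, 57 were higher and 3 lower than in untreated cells, and 53 and 3 against ATP-depleted cells. In amplicon 116 to 366 the median log2 difference was 0.03 on the deposited scale and -0.27 with plain sums, and 16 of its 100 bases changed sign. None of the bases named for the largest rise or fall in any of the 3 amplicons changed sign under either scaling. They were picked for large differences, so their unchanged signs are no check on the split.

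The profile of the GC-rich stretch followed the pairing predicted from its sequence more closely in vitro than in cells. The unpaired probability of each base was computed from the amplicon sequence with RNAfold at 37 °C, and its Spearman correlation with reactivity over the 100 adenines and cytosines was 0.468 ± 0.0273 (n = 3 samples) in untreated cells, 0.519 ± 0.0106 after ATP depletion and 0.680 ± 0.00437 in vitro. The bases share a library and a fold and are not replicates. Over the 161 amplicons the median correlation was 0.419, 0.421 and 0.411, and the GC-rich stretch ranked 68th, 55th and 10th. The in vitro values had a part in choosing the gene, so nothing is read from the in vitro rank. With adenine alone, of which there were 19, the correlations were 0.497, 0.483 and 0.526.

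The 60 bases predicted as paired, with an unpaired probability under 0.5, had a median reactivity of 4940 ± 210 CPM (n = 3) in untreated cells and 2406 ± 64.0 in vitro. The 40 bases predicted as unpaired had 7268 ± 394 and 13670 ± 425. Of the 60, 41 were lower and 12 higher in vitro without overlap of the samples, and of the 40, 5 were lower and 30 higher. As plain shares of the counts the medians were 0.549% ± 0.0211 and 0.196% ± 0.00214 for the 60, and 0.809% ± 0.0469 and 1.12% ± 0.0148 for the 40, with 49 lower and 7 higher of the 60 and 9 lower and 25 higher of the 40. Of all tested bases, whatever their predicted state, 16.8% were lower and 17.3% higher in vitro without overlap as CPM. The same split is not given here for amplicons of other genes. The in vitro values had a part in choosing the gene, so these counts are a description. The prediction and the data differed at single bases: C209, among the largest rises, had a predicted unpaired probability of 0.268, and A334, at 10480, 10400 and 12220 CPM in untreated cells and 32150, 31350 and 30500 in vitro, 2.09-fold as a share, had 0.005.

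**Figure D3:**
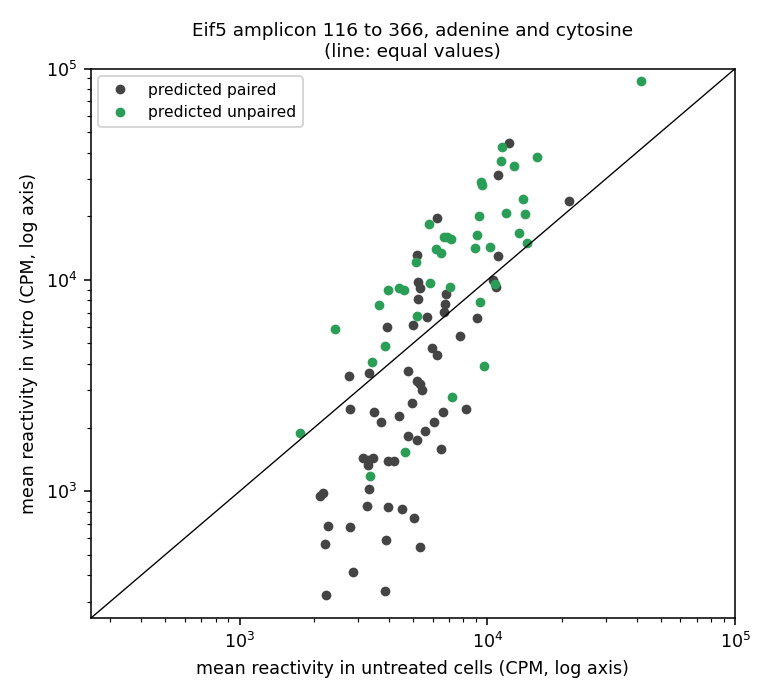
Mean reactivity in vitro against mean reactivity in untreated cells, both in CPM on log axes, for the 100 adenines and cytosines of amplicon 116 to 366, by predicted state. Points are nucleotides and the line marks equal values; most of the 60 bases predicted as paired lie below the line, 41 of them with no overlap between samples, and most of the 40 predicted as unpaired lie above it.

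Around the main start codon the same prediction followed the data poorly. The correlation was 0.241 ± 0.0157 in untreated cells, 0.198 ± 0.0205 after ATP depletion and 0.292 ± 0.0147 in vitro for amplicon 341 to 591. For amplicon 343 to 593 it was 0.0976 ± 0.0151, 0.0646 ± 0.00772 and 0.0490 ± 0.0206. The measured profiles of the 2 readings were alike while the prediction changed with a shift of 2 bases in the folded sequence. With all contiguous Eif5 sequence folded, the in vitro values were 0.215 and 0.178.

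The A of the ATG at 312 was close to the median adenine in all groups. It read 9202, 8348 and 10480 CPM in untreated cells, 8428, 8989 and 9303 after ATP depletion, and 7913, 6568 and 9202 in vitro. As CPM the 3 groups overlapped. As a share of the counts it was 1.04% ± 0.121 in untreated cells, 0.979% ± 0.047 after ATP depletion and 0.644% ± 0.105 in vitro. On that scale it fell to 0.62 times the untreated level, and all in vitro samples were lower than all samples of cells. Its level was 1.06, 1.01 and 0.915 times that of the median adenine of the amplicon in the 3 groups.

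The A of the ATG at 420, the codon whose frame runs past the main start, was also close to the median adenine. In amplicon 341 to 591 it read 8630, 7340 and 7847 CPM in untreated cells, 7454, 6531 and 7515 after ATP depletion, and 8410, 7724 and 9585 in vitro. In amplicon 343 to 593 the means were 8037 ± 1240, 6695 ± 583 and 8148 ± 888 CPM. Untreated and in vitro samples overlapped in both readings.

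The A of the ATG at 452, which opens the short frame of 22 codons, was below the median adenine in cells and lower still in vitro. In amplicon 341 to 591 it read 4057, 5065 and 5776 CPM in untreated cells, 5403, 5341 and 5408 after ATP depletion, and 2408, 3100 and 2637 in vitro. In amplicon 343 to 593 it read 5039, 5230 and 6746 CPM, then 5251, 4740 and 5953, and 2799, 4296 and 3007 in vitro. In both readings all in vitro samples were lower than all samples of cells. Against the median adenine its level was 0.671 ± 0.101 in untreated cells and 0.327 ± 0.0424 in vitro in the first reading.

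The A of the main start codon at 542 went the other way. In amplicon 341 to 591 it read 6950, 5402 and 6661 CPM in untreated cells, 5835, 4891 and 6684 after ATP depletion, and 8926, 7885 and 9113 in vitro. In amplicon 343 to 593 it read 6695, 6048 and 5921 CPM, then 6968, 4906 and 6285, and 9895, 7480 and 9080 in vitro. All in vitro samples were higher than all samples of cells in both readings. As a share of the counts the rise over untreated cells was 1.27-fold and 1.33-fold, and on that scale in vitro and ATP-depleted samples overlapped in the second reading.

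**Figure D4:**
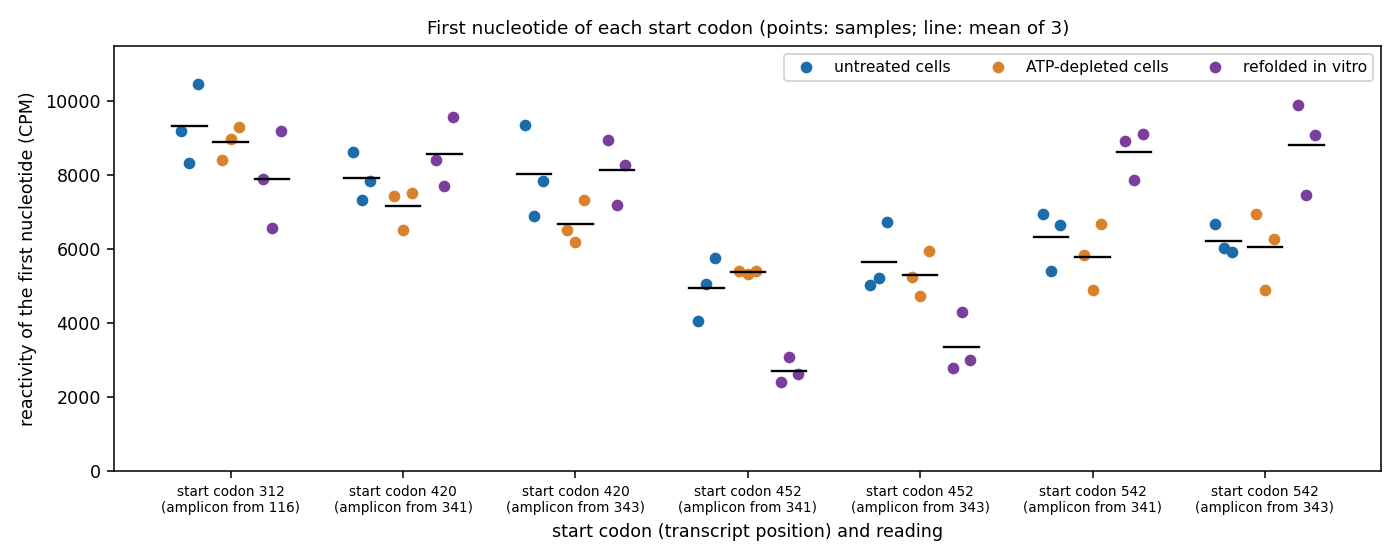
Reactivity in CPM (vertical axis) of the A of each ATG triplet of the Eif5 leader in each amplicon that reads it (horizontal axis), in untreated cells, ATP-depleted cells and RNA refolded in vitro. Points are samples and lines are means of 3; at 452 the in vitro points are the lowest in both readings, and at 542 they are the highest.

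The A of the 4 start codons did not pass the test after ATP depletion. The log2 differences between ATP-depleted and untreated cells were -0.05 at 312, -0.10 and -0.18 at 420, 0.08 and -0.06 at 452, and -0.08 and -0.03 at 542, with standard errors of 0.10 to 0.13. Every limma adjusted p was 0.9999, and ATP-depleted and untreated samples overlapped at each of them. The smallest unadjusted p was 0.158, at 420 in amplicon 343 to 593. Signs at 312, 452 and 542 turned when single samples were left out.

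In vitro and untreated samples of the downstream stretch did not overlap at 37 bases that were higher in vitro and 31 that were lower, of 114, in amplicon 341 to 591, and at 39 and 29 of 115 in amplicon 343 to 593, against 17.3% and 16.8% of all tested bases. A480 was the most reactive base in cells in both readings, with 14130, 11470 and 13320 CPM in untreated cells, 16740, 14190 and 16840 after ATP depletion and 25970, 24970 and 24860 in vitro in amplicon 341 to 591. A433, 13 bases into the frame that starts at 420, read 8460, 9577 and 10520 CPM in untreated cells and 19400, 18720 and 19520 in vitro. C398 rose from a low level, 2219, 2215 and 3229 CPM in untreated cells to 8736, 6408 and 6806 in vitro in amplicon 343 to 593. All 3 bases were higher in every in vitro sample than in any sample of cells. C401, 3 bases on from C398, was instead among the highest in cells and lower in vitro, at 12020, 10510 and 10630 CPM against 8070, 8966 and 8134 in amplicon 341 to 591.

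Falls in vitro around the short frame included the pair C483 and C484. In amplicon 343 to 593 C483 read 3332, 6572 and 6926 CPM in untreated cells and 1811, 1375 and 2307 in vitro, and C484 read 6278, 6645 and 6595 and then 1980, 2416 and 3641. Just before the main start codon, C537 read 7416, 6594 and 7538 CPM in untreated cells, 3587, 4840 and 5460 after ATP depletion, and 2441, 3675 and 2601 in vitro in amplicon 341 to 591. So the base 5 positions before the main ATG was lower in vitro while the A of the ATG was higher.

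One pair of complementary stretches fell together in vitro. It was picked after the values were seen, from all pairs of Eif5 stretches that could form 6 or more base pairs in a row with at least 3 bases between them, and the pairing bases are in capitals.
Positions 383 to 388: acaaGCAAGAagct
Positions 438 to 443: gaacTCTTGCagtc
The second stretch lies between the ATG at 420 and the ATG at 452. Of the 6 adenines and cytosines in the pair, 5 were lower in vitro than in untreated cells without overlap in amplicon 341 to 591 and 6 in amplicon 343 to 593. The median log2 differences were -0.68 and -0.69. C384 was the base with the largest fall of amplicon 341 to 591, from 4156, 5043 and 3979 CPM to 1004, 385.3 and 572.2. C439, on the other side, went from 4204, 2466 and 3010 CPM to 320.4, 365.1 and 820.2 in amplicon 343 to 593. A388 was the base that overlapped in amplicon 341 to 591. Pairs with all their adenines and cytosines lower numbered 5 of 1101 in the amplicons of other genes (0.454%), 0 of 6 in amplicon 341 to 591, 1 of 6 in amplicon 343 to 593 and 0 of 13 in amplicon 116 to 366.

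A second pair lay in the GC-rich stretch and was also picked after its values were seen, from the 13 pairs there. Its predicted unpaired probability was 0.006 on average, against 0.177 for the first pair in amplicon 341 to 591 and 0.302 in amplicon 343 to 593.
Positions 179 to 184: cgtcGCTGGGacag
Positions 218 to 223: cctgCCCAGCcgcc
Of its 6 adenines and cytosines 5 were lower in vitro without overlap, with a median log2 difference of -0.87. Other pairs of the stretch went the other way: between 207 to 212 and 222 to 227, 5 of 6 were higher and 0 lower, with a median of 0.91. A221 read 8417, 7959 and 8097 CPM in untreated cells, 6843, 7555 and 7310 after ATP depletion and 2873, 2161 and 2320 in vitro. C180 read 4232, 3568 and 3826 CPM and then 217.2, 260.5 and 533.0 in vitro. As shares A221 and C180 were 0.220 and 0.0631 times the untreated level. C223, at the end of the second stretch, was the exception with a log2 difference of 0.18. As a share it was 0.939 times the untreated level, with overlapping samples. C178, which lies just before the first stretch, rose in all 3 samples, from 12880, 11860 and 13680 to 33030, 34430 and 36880 CPM, 1.99-fold as a share.

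The 2 readings of the downstream stretch were compared base by base. Over the 114 shared bases the log2 difference between refolded RNA and untreated cells had the same sign in 102, and the median absolute gap between readings was 0.087. The samples did not overlap in both readings at 53 bases, 28 higher and 25 lower in vitro, and the direction was the same at all 53. At 29 further bases they did not overlap in 1 reading alone. For ATP-depleted against untreated cells the sign was the same at 68 of 114, and the samples did not overlap in both readings at 6, 1 higher and 5 lower, and in 1 reading alone at 20. The median absolute gap between readings was 0.084 there, against a median absolute difference of 0.08.

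**Figure D5:**
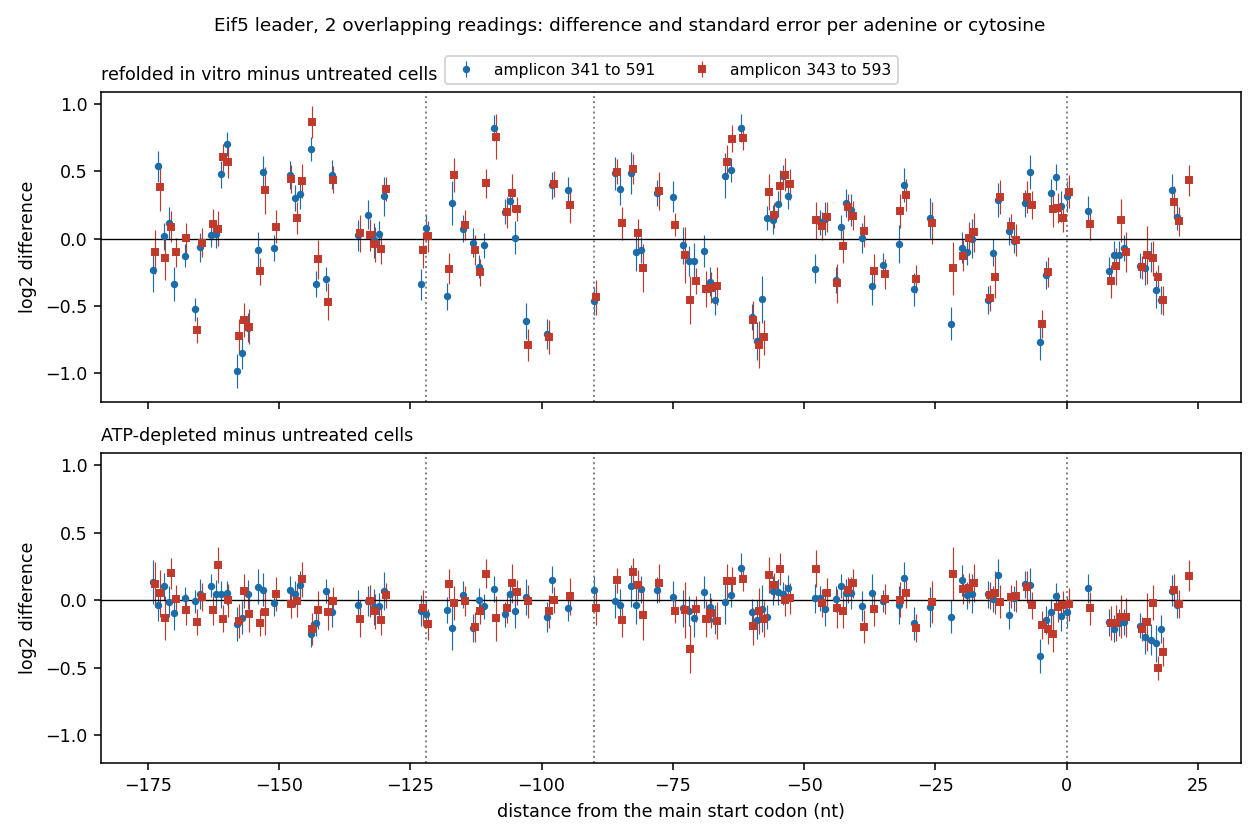
Log2 difference per adenine or cytosine (vertical axis) against the distance from the main start codon in nucleotides (horizontal axis) for refolded RNA minus untreated cells and for ATP-depleted minus untreated cells, in the 2 overlapping amplicons. Points are estimates of the fit with standard errors and dotted lines mark the ATG triplets at 420, 452 and 542. The refolding differences of the 2 readings have the same sign at 102 of 114 shared bases. The 5th and 95th percentiles of the ATP differences are -0.212 and 0.123 in amplicon 341 to 591 and -0.213 and 0.196 in amplicon 343 to 593. C559 lies outside them, at -0.50 in amplicon 343 to 593.

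ATP depletion was tested over all Eif5 readings. None of the 329 readings passed an adjusted p of 0.05 in limma, and none of the 16178 in the table did (0%). At an unadjusted limma p under 0.05 there were 18 in Eif5 (5.47%) and 636 in the table (3.93%). By amplicon, in the order of their bounds, these were 10 of 100 (10.0%), 5 of 114 (4.39%) and 3 of 115 (2.61%). Samples of the groups did not overlap at 24 readings that were higher and 39 that were lower after ATP depletion, against 4.45% and 7.92% of all tested bases. Of these, 16 higher and 15 lower were among the 100 bases of amplicon 116 to 366. The other amplicons had 3 and 11 of 114, and 5 and 13 of 115. The median log2 difference was -0.02 in Eif5 and -0.03 in the table. Mean log2 reactivity differed by -0.02, -0.02 and -0.03 in the 3 amplicons, with adjusted p of 0.7306, 0.6795 and 0.6795.

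The unevenness of the GC-rich stretch did not pass the test after ATP depletion. The Gini coefficient of amplicon 116 to 366 was 0.357 ± 0.00936 (n = 3) against 0.325 ± 0.0153 in untreated cells, and all 3 ATP-depleted samples were higher than all untreated ones, as in 9.94% of the amplicons. The difference of 0.0322 (SE 0.0101) had an unadjusted p of 0.01298 and an adjusted p of 0.3482 in limma over 161 amplicons, of which 13 were under an unadjusted p of 0.05 (8.07%) and none passed the adjustment. The difference was 0.0064 with adenine alone, 0.041 with cytosine alone, 0.0152 with all 4 bases and 0.0060 with bases at or above the pooled median. The other amplicons differed by 0.0266 (adjusted p 0.7432) and 0.0196 (adjusted p 0.984). The median over all amplicons was 0.004. The 3 differences had the same direction, but the other amplicons read the same molecules and are not replicates of each other. Samples of both groups of cells also entered the comparisons that chose the gene. Nothing is therefore read from the shared direction. With bases at or above the pooled median the difference in amplicon 343 to 593 was -0.0051.

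The bases with the smallest unadjusted p after ATP depletion were C559 and C560, just inside the coding sequence, and C260. The first is shown for its place downstream of the main ATG, with the measured base in capitals.
C559: acgtcaaCcgcagcg
C559 read 5999, 5525 and 5713 CPM in untreated cells and 2946, 3373 and 3052 after ATP depletion in amplicon 343 to 593, a log2 difference of -0.50 (SE 0.088, unadjusted p 0.000402, adjusted p 0.9999 in limma). In amplicon 341 to 591 it read 4325, 4553 and 5378 CPM and 3136, 3268 and 3089, a difference of -0.32. The groups did not overlap in either reading. C560 differed by -0.38 and -0.21, and overlapped in amplicon 341 to 591. C260, in the GC-rich stretch, read 4376, 5050 and 4495 CPM in untreated cells and 3037, 3004 and 3277 after ATP depletion.

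The window from 540 to 564, which holds the main ATG and C559, took 10.7%, 10.3% and 10.2% of the signal of amplicon 341 to 591 in untreated cells and 9.46%, 8.88% and 9.26% after ATP depletion. The groups did not overlap, and the two-sided exact permutation p was 0.1, the smallest that 3 samples against 3 allow. In amplicon 343 to 593 the window from 542 to 566 took 9.88% ± 0.148 and 9.01% ± 0.721 and the groups overlapped. Over the 24 windows of Eif5, 3 had no overlap between ATP-depleted and untreated cells, and 12.9% of windows over all amplicons had none.

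Replicates of the GC-rich stretch were close to each other. Pearson correlations over its 100 adenines and cytosines, which share a library, were 0.974 to 0.986 among untreated samples, 0.985 to 0.991 among ATP-depleted and 0.970 to 0.981 among in vitro samples. Between ATP-depleted and untreated samples they were 0.945 to 0.981, and between in vitro and untreated samples 0.722 to 0.790. In amplicon 343 to 593 untreated samples reached 0.795 to 0.938 among themselves.

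By the Gini coefficients over the 9 samples, the amplicons of other genes nearest to the GC-rich stretch were 2 of Brd2, at 1524 to 1774 and 1433 to 1683, and 1 of Taok2, at 375 to 625. The distances were 0.0936, 0.126 and 0.133, and the GC contents 69.2%, 72.6% and 66.2%. Nearest to amplicon 341 to 591 were amplicons of Ext1, D830031N03Rik and Azin1, and to 343 to 593 amplicons of D830031N03Rik, Fam13b and Ptp4a1. Those distances ran from 0.0399 to 0.0553.

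Of 53 genes of start-codon selection and translation initiation or of known upstream-start control that were listed, 2 were in the table. In Eif4g3, a scaffold of the cap-binding complex, 17 of 113 and 7 of 134 adenines and cytosines passed between refolded RNA and untreated cells (15.0% and 5.22%, against 16.3% of all tested bases). In Azin1, the antizyme inhibitor whose upstream codon is known for control by polyamines, 16 of 100, 33 of 117, 30 of 94 and 11 of 77 did so in its 4 amplicons (16.0%, 28.2%, 31.9% and 14.3%). The Gini coefficients in vitro of these 6 amplicons ran from 0.363 ± 0.0213 to 0.474 ± 0.135. Of the Eif5 amplicons the GC-rich one was above that range, at 0.576 ± 0.00340, and the other two were below it, at 0.352 and 0.336; the first of these values had a part in choosing the gene.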

How the data were processed

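Mutational profiling with DMS was read by amplicon sequencing of cDNA in 9 samples of mouse E14TG2a cells, 3 per group, grouped by the titles in the labels. The values deposited by the authors are log2 values, 1 per nucleotide and sample, on RefSeq transcript positions. The submitters' processing notes name bcl2fastq, Bowtie2 and limma. Not given in the sources used here are their versions, the counting of modified bases and the reference build. Every value could be written as a whole count plus 0.5, divided by a scaled library size of that amplicon, in CPM on the log2 scale. Whole numbers came out for every value in 1449 of 1449 libraries at a tolerance of 0.0001. Intervals from such counts of amplified cDNA would cover counting error only, and none is given.

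The plan had assumed linear reactivities. The deposited log2 values were turned back to CPM, and adenines and cytosines with signal (16178 of 16187) were tested as log2(CPM + 3197), the constant being 0.5 times their pooled median of 6394 CPM, with limma 3.58.1 in R 4.3.3 over all 9 samples. P-values were two-sided and adjusted by Benjamini-Hochberg over all bases or all amplicons. The procedure was tested on simulated data. Pairing was predicted with ViennaRNA 2.7.2.

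The bases named were the A of each ATG, in each amplicon the 3 largest rises and falls in vitro without overlap of samples and the 3 highest in cells, and the 3 smallest p-values for ATP depletion. A334, C178, C180, A221, C223 and A388 were named after their values were seen. The gene, the lists and these rules were chosen with earlier results of these data known. Alternatives covered the constant, the scale, the scaling, a filter on low values, amplicon ends, bases, depth, windows, the samples fitted, a replicate block and leaving out each sample. Plain-sum scaling and the complementary stretches were added after seeing the data. Genome positions and protein sequences were not used here.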

Additional observations from a re-analysis of the deposited data

Results flagged for a closer look

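Thymine lies outside the main measurement, which used adenine and cytosine, and it carried signal in the Eif5 leader. Its median reactivity in untreated cells was 4122 CPM in amplicon 116 to 366, 3888 CPM in amplicon 341 to 591 and 3850 CPM in amplicon 343 to 593, above the level that a count of 0 allows. Guanine stood at 675.0, 898.0 and 1021 CPM in the same samples. A control without DMS was not analysed here, and how much of the thymine signal came from the reagent was not tested.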

How the results depend on the processing

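No adenine or cytosine of Eif5 passed the adjustment between ATP-depleted and untreated cells under any alternative run. Under the filter that kept nucleotides at or above the pooled median, fewer readings were tested. Those passing in vitro fell to 60 against untreated (57 higher, 3 lower) and 56 against ATP-depleted cells (53 and 3). The same filter turned the ATP difference in mean log2 reactivity to 0.0487, 0.0171 and 0.0175 in the 3 amplicons and that in the Gini coefficient of amplicon 343 to 593 to -0.0051. Under it the Gini difference between refolded RNA and untreated cells was 0.113, 0.0743 and 0.0533, and against ATP-depleted cells 0.107, 0.0647 and 0.0584. In amplicon 116 to 366 the difference from untreated cells was 0.213 with adenine, 0.277 with cytosine, 0.182 with all 4 bases and 0.277 without 25 nucleotides at each end. From ATP-depleted cells it was 0.206, 0.236, 0.167 and 0.244. With all 4 bases amplicon 341 to 591 gave 0.0988, and with cytosine amplicon 343 to 593 gave 0.0652 from ATP-depleted cells. All these in vitro differences kept their direction.

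Leaving out single samples gave 92 to 128 readings passing between refolded RNA and untreated cells and 62 to 122 against ATP-depleted cells. It gave 4 to 9 windows without overlap after ATP depletion. The window count can only stay or rise when a sample is left out. Its range is therefore no check on the 3 windows found with all samples. The Gini differences from untreated cells ranged from 0.242 to 0.257, 0.124 to 0.142 and 0.104 to 0.139 by amplicon. For ATP depletion they ranged from 0.0238 to 0.0386, 0.0195 to 0.0375 and 0.0065 to 0.0406. The ATP difference at start-codon adenines ranged from -0.1059 to 0.0161 at 312, from -0.0048 to 0.1485 and -0.1099 to 0.0286 at 452, and from -0.1027 to 0.0608 at 542 in amplicon 343 to 593, where it was 0.0043 without untreated replicate 1. The cause of these turns was not tested.

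Deviations of ATP-depleted and untreated samples with the same replicate number correlated weakly, at 0.041, 0.10 and 0.031. Samples with different numbers were not compared, so whether the numbers pair the samples cannot be told from this. With the replicate number as a block, 117 and 102 readings passed in vitro, and 0 after ATP depletion. With counts thinned to equal depth all 9 Gini differences kept their direction. Depth limits weak bases most: in vitro, C180 rested on as few as 18 counts, C439 on 23 and C384 on 33.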
